A study of Gallus gallus with 14 samples.

Results

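Unannotated transcripts lying over the piRNA clusters of embryonic chicken gonads were described, as candidate piRNA precursors. A member was a transcript with an assembly identifier only (a name starting with TCONS_, given to transcripts that the RNA-seq assembly built and matched to no annotated gene), with at least 1 FPKM (fragments scaled to transcript length and library size) in at least 1 of 6 RNA-seq libraries, whose locus overlapped a called piRNA cluster by at least 1 bp in each of the 4 gonad small RNA libraries. Of the 42501 transcripts in the expression table, 8047 were unannotated, 5446 of these reached 1 FPKM, and 69 were members. Another 62 unannotated transcripts lay over clusters of all 4 gonad libraries but stayed under 1 FPKM. The members were thus chosen by their FPKM and by the gonad cluster calls, and both are given as a description.

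The study followed germline development of the chicken in 14 libraries, 2 a group. Small RNAs that resist periodate oxidation, which leaves piRNAs with their 3′-end 2′-O-methyl group ligatable, were sequenced from blastodermal cells (BC) of fresh fertilized Leghorn eggs, cultured male primordial germ cells from E7 gonads (E7PGC) of Arbor Acres broilers, and male gonads at embryonic days 11 (E11G) and 14 (E14G). In both gonad groups replicate 1 was Cobb 500 (MiSeq) and replicate 2 Leghorn (Solexa), which leaves breed and sequencer confounded: they cannot be told apart. Strand-specific RNA-seq was made from BC, E11G and E14G of another breed, JA57, with no PGC library, so RNA and piRNA values come from different birds. The labels name no mutation or treatment. Each gonad library pooled whole left-side gonads of several embryos, E7PGC were cells kept in culture, and p-values measure only the spread between the 2 libraries of a group, which may be technical.

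PiRNAs guide PIWI proteins to transposon and other transcripts in germ cells. In animals they are cut from long single-stranded precursor RNAs that RNA polymerase II makes from discrete genomic clusters, many of them outside annotated genes. A cluster read from 1 strand gives piRNAs of 1 orientation, and a cluster read from both strands gives both. In the mouse testis the transcription factor A-MYB (MYBL1) drives many such precursors at meiosis, and a first-base uridine (1U, read as 1T in DNA letters) is a hallmark of piRNAs loaded on PIWI proteins.

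The gonad RNA-seq libraries expressed the male markers AMH (3056 and 2906 FPKM in E14G, 3797 and 4696 FPKM in E11G) and DMRT1, but the library labelled E11G replicate 1 stood apart. It held 116 FPKM of CYP19A1, the aromatase of the ovary, where no other library exceeded 0.0188 FPKM. The summed FPKM of the 25 expressed transcripts on the female-specific W chromosome was 168 and 172 in BC. It was 58.8 in E11G replicate 1, against 18.4 in E11G replicate 2 and 20.2 and 29.4 in E14G. The RNA of E11G replicate 1 therefore went against the label of male gonads. For E11G against BC and E14G against E11G, the member calls and medians are given with and without it. So are the correlations of RNA with piRNA differences. Other values that use it, such as the counts on Z and of pathway genes, are given only with it. Leaving it out moved no log2 difference of a member between E11G and BC or between E14G and E11G by more than 0.33, and no member called in either comparison changed sign. The 16 members on Z differed little between the E11G replicates, with a median log2 difference (replicate 1 minus replicate 2) of 0.02, beside 0.10 for the other members. Some somatic markers (AMH of Sertoli cells, CYP17A1 and CYP11A1 of Leydig cells) and hemoglobin HBA1 of red blood cells were abundant in gonads. The germ cell markers were lower than these. DDX4 had 26.2 and 22.7 FPKM in E14G and 22.6 and 17.6 FPKM in E11G, and DAZL 56.2 and 48.7, and 62.7 and 58.3. Other somatic markers were not above DAZL throughout: SOX9 was at 13.7 to 25.5 FPKM and STAR at 8.87 to 26.1, while DMRT1 and HSD3B1 were at 50.8 to 75.2. In such bulk samples fewer germ cells and less RNA per cell cannot be told apart.

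The 69 members filled 57 distinct spans, because 19 members shared 7 spans. Members of 1 span are called isoforms here for short, though whether they share exons or a strand is not known. The 69 members lay over 53 merged piRNA loci called in all 4 gonad libraries. Spans ran from 241 to 125391 bp with a median of 7254 bp, against a median of 3018 bp over all expressed unannotated transcripts. On average over the gonad libraries, clusters covered between 5.97% and 100% of a span, with a median of 78.7%, and 37 members had at least 0.5 of their span covered in every gonad library. The label of unannotated held for 58 members, while 11 members in 8 spans overlapped an annotated row of the same table. Of these 11, 2 overlapped RefSeq genes: TCONS_00055909 lay over SYK, a tyrosine kinase gene, and TCONS_00038039 over ERNI, an early neural response gene. The files give the outer span of an assembled locus but no exons and no strand, so whether a member is exonic, intronic or antisense to a neighbour is not known here.

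Members sat on 16 assembled chromosomes, and 3 lay on unplaced or random scaffolds. The Z chromosome held 16 of the 69 members (23.2%), against 6.33% of all expressed unannotated transcripts, and chromosome 1 held 12. By locus, 15 of 53 member loci (28.3%) were on Z, against 6.82% of the 763 other loci called in all 4 gonad libraries. Most of those others were on scaffolds, however, and among loci on assembled chromosomes the share on Z was 30.0% of 50 member loci and 21.2% of 245 others. The densest run of member loci, with gaps under 1 Mb, held 5 loci in 1.42 Mb (chrZ:67199955-68616892, galGal5), which contained 7 such shared piRNA loci and 27 expressed unannotated transcripts in all. A second run held 3 loci and 4 members near the start of chromosome 12 (chr12:46077-1224026).

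The cluster lists print DNA letters only where the cluster caller matched a binding motif, and the MYB matches at member loci are shown because A-MYB is the known driver of piRNA precursors in the mouse. The caller searched both strands for A-MYB, a motif of 10 letters, and for an 8-letter MYBL1 motif (AACCGTTA or its reverse complement TAACGGTT). Positions are the cluster start plus the listed distance, in galGal5. The lists do not say whether that distance counts from 0 or 1, nor the strand, so letters stand as listed. The 6 A-MYB matches found in all 4 gonad libraries, with the MYB core in capitals, were as follows.
TCONS_00006638, inside its span (chr1:185460049-185460058): aggCAGTTgg
TCONS_00017250, inside its span and that of its 2 isoforms (chr2:485483-485492): agaCAGTTgg
TCONS_00006814, 4.52 kb away (chr1:194592575-194592584): ccAACTGtca
TCONS_00006814, 3.4 kb away (chr1:194603335-194603344): ccAACTGtca
TCONS_00014600, 4.35 kb away (chr18:4109436-4109445): ccAACTGtca
TCONS_00038777, 2.84 kb away (chr5:23478538-23478547): aggCAGTTgg

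Both MYBL1 matches found in all 4 gonad libraries fell inside members, and the core is again in capitals.
TCONS_00003832 and TCONS_00003834 (chr1:20261671-20261678): aaCCGTTa
TCONS_00004739 (chr1:67361333-67361340): aaCCGTTa

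In all, 13 A-MYB matches lay at 8 member loci, of which 3 fell inside a member. Of the 13, 12 were listed in every gonad library whose cluster reached over them. An A-MYB match was listed in 10.9% to 14.5% of the clusters overlapping a member in the 4 gonad libraries, against 7.21% to 8.88% of all clusters. Clusters over members were longer (median 8627 to 10863 bp, against 7102 to 7492 bp for other clusters), and only among the longest clusters was the share above that of others in all 4 libraries. Among clusters of at least 10 kb, 23 to 29 of them over members in a library, the share was 21.7% to 24.1% over members and 12.5% to 14.2% in others. Among clusters of 6 to 10 kb it was 0% to 6.67% over members and 6.64% to 8.17% in others. Among clusters under 6 kb it was 9.09% over members in E14G replicate 1 and 0% in the other 3 libraries, against 2.66% to 6.15% in others. The MYBL1 match was in 3.64% to 5.56% of member clusters and 4.16% to 5.76% of all clusters. Motifs of RFX4, a winged-helix transcription factor, were in 59.3% to 63.6% of member clusters and 40.3% to 43.5% of all clusters. By length the RFX4 shares had no steady trend. In E11G replicate 1 they were furthest apart at 10 kb or more (82.6% over members, 58.5% in others). In E14G replicate 2 they were closest there (65.5% and 60.6%). From 6 kb up, the share over members was the higher in all 4 libraries. At 10 kb or more they were 65.5% to 82.6% over members and 58.5% to 63.1% in others, and at 6 to 10 kb 47.1% to 72.7% and 39.4% to 43.1%. Under 6 kb they were 0% over members in E14G replicate 2 and 33.3% to 54.5% in the other libraries, against 22.1% to 26.1% in others. A match in these letters is a description and not a bound site.

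In the gonads, the 53 member loci together took 6.5% and 6.33% of the normalized hits of E14G and 6.21% and 5.62% of those of E11G. Normalized hits split each read over the genomic places it maps to and scale the sum to library size, so these shares are of all piRNA reads of a library. The median over member loci was 340 normalized hits, against 282 over the 763 others. The locus of TCONS_00056280 on Z (chrZ:67199955-67279913) ranked first among the 816 loci shared by the gonad libraries, with 14259 and 15522 normalized hits in E14G and 13042 and 10795 in E11G. At the other end, the locus of TCONS_00031588 on chromosome 3 held 86.0 and 85.0 normalized hits in E14G and 60.2 and 59.8 in E11G.

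Member clusters had a single direction more often than other clusters, in a comparison not restricted to assembled chromosomes. Of member loci 94.3% were on these, against 32.1% of the 763 others. Clusters with a single direction made up 53.7% to 63.6% of the clusters over members in the 4 gonad libraries and 39.5% to 53.8% of other clusters, and the share was higher over members in each of the 4. Of the 53 loci, 24 had a single direction in all 4 gonad libraries and 14 were read from both strands in all 4. The 1T share, averaged over gonad libraries, was between 35.9% and 77.1% with a median of 54.8%, and the median over clusters of a library was 53.5% to 56.5% over members and 54.6% to 58.9% elsewhere. The locus of TCONS_00056315 on Z was an example of a single-direction, 1T-rich cluster, with 93.6% to 99.6% of its gonad hits on the main strand and a 1T share of 68.3% to 82.5%. The highest locus, at TCONS_00056280, was read from both strands in gonads, with 53.9% to 61.7% on the main strand.

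Outside the gonads, cluster calls at member loci were frequent in E7PGC and rare in BC. Both E7PGC libraries had a call at 34 of 53 member loci (64.2%) and both BC libraries at 7 (13.2%), against 84.1% and 24% of the other 763 loci. On assembled chromosomes alone the E7PGC share was 62.0% at member loci and 64.5% at others, and the BC share 12% and 24.5%. Loci called in gonads only numbered 11 (22%) among the 50 member loci on assembled chromosomes and 36 (14.7%) among the 245 others. The absence of a call is not an absence of piRNAs, since the lists hold no value outside called clusters. The hit density needed for a call, taken from the list headers and divided by the reads of the library, was 2.21 and 2.32 RPM per kb in BC, 8.71 and 7.95 in E7PGC, and 11.2 to 13.3 in gonads.

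**Figure D1:**
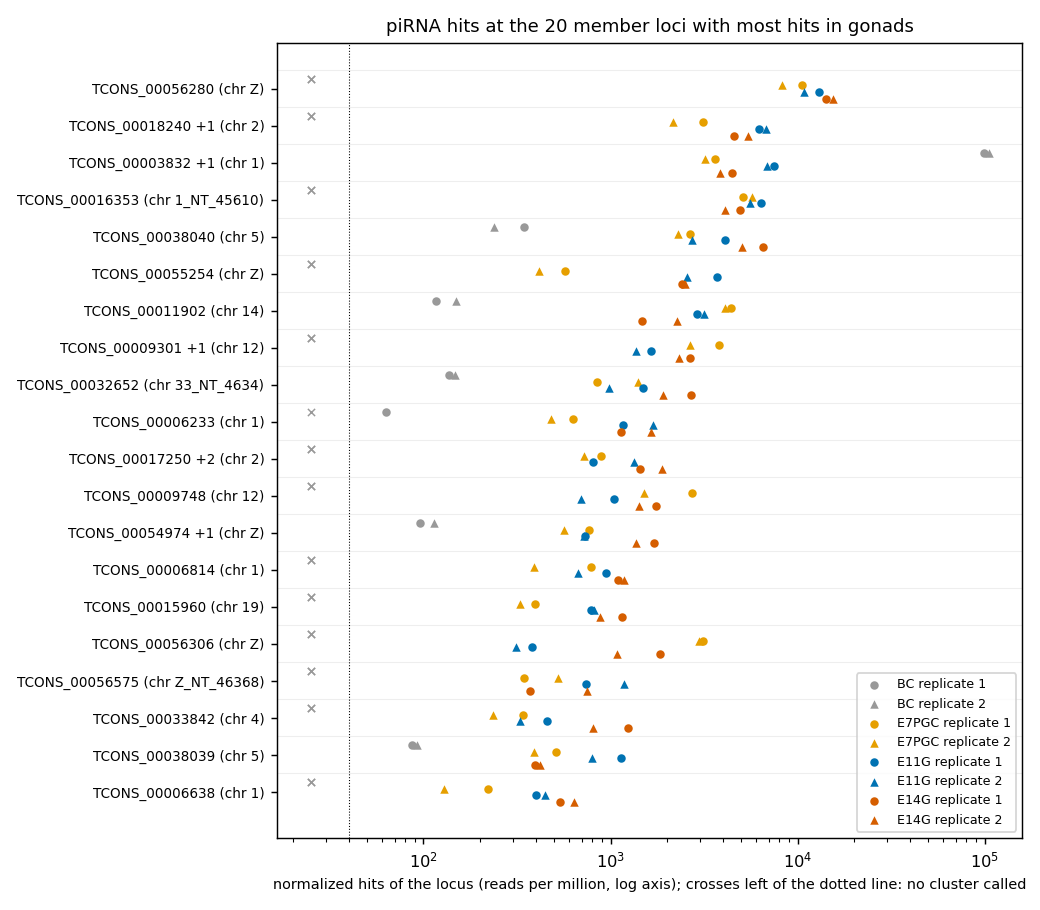
Normalized hits (scaled to library size, log axis) of the 20 member loci with the highest mean over the gonad libraries, named by a member ("+1" counts further members of the locus). Points are the 8 small RNA libraries by stage and replicate, and crosses left of the dotted line mark a library without a called cluster; the locus of TCONS_00003832 had 99197 and 105110 hits in BC, above its gonad values, while most other loci had no BC call.

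The locus of TCONS_00003832 and TCONS_00003834 (chr1:20258223-20289985), between TRABD and SELENOO, stood apart in BC. It held 99197 and 105110 normalized hits in BC, 3612 and 3210 in E7PGC, 7482 and 6839 in E11G and 4452 and 3839 in E14G, where all member loci together held 100439 and 106298 in BC. The BC libraries held only 80774 and 77346 distinct sequences, in 6336239 and 6381706 reads, against 255025 to 1608518 in the other libraries. Hits scaled to library size thus rest on a narrower set of sequences in BC. The locus had a single direction in all 4 gonad libraries, with 99.3% to 99.5% of hits on the main strand, and its 1T share was 70.3% to 73.0% in gonads and 78.4% and 78.3% in BC. The other BC-called member loci were far lower, with between 87.1 and 396 normalized hits in BC where both BC libraries had a call. The locus of TCONS_00036935 on chromosome 5 was the only other of them above its gonad level in both BC libraries, at 99.2 to 229 normalized hits in gonads against 396 and 377 in BC.

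RNA levels of the members were low. The highest level reached under 2 FPKM in 29 members and 10 FPKM or more in 7, and 8 members reached 1 FPKM in a single library. The median over members of the stage mean was 0.57 FPKM in BC, 1.58 in E11G and 1.71 in E14G, beside 1.24, 1.65 and 1.53 FPKM for all expressed unannotated transcripts. Of the 69, 38 reached 1 FPKM in gonads only, 6 in BC only and 25 in both. Just inside the threshold were TCONS_00006814 with at most 1.01 FPKM, TCONS_00002816 with 1.01 and TCONS_00019669 with 1.02, each in E14G replicate 1. Just outside it were TCONS_00027169 with at most 0.938 FPKM, TCONS_00055075 with 0.931 and TCONS_00055076 with 0.897. Across the 69 members, mean gonad FPKM and mean gonad normalized hits were nearly unrelated (Spearman's rho 0.10), a description over members that share spans and libraries.

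The most abundant member in gonads was TCONS_00027557 (chr28:146198-196685). It had 0.377 and 0.337 FPKM in BC, 45.0 and 45.6 in E11G and 49.2 and 40.5 in E14G. Both gonad groups lay over 40 FPKM and BC under 1. Gonad clusters covered 14.5% and 37.7% of its span in E14G and 16.5% and 32.6% in E11G. The locus shared by all gonad libraries (chr28:163977-172872) held 96.0 and 185 normalized hits in E14G and 218 and 315 in E11G and had no call in BC or E7PGC. Replicate 2 of each gonad stage had another cluster under the span, at different places, and E7PGC replicate 1 had one of 87.2 normalized hits at the place of that in E14G.

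TCONS_00055254, a 241 bp transcript wholly inside a cluster on Z (chrZ:8463161-8463401), was second. It had 47.3 and 34.6 FPKM in BC, 19.3 and 13.3 in E11G and 14.9 and 18.3 in E14G. BC was above every gonad library, yet no BC library had a cluster there, while the cluster over the transcript held 915 and 607 normalized hits in E14G and 3695 and 1300 in E11G. The whole merged locus, which joins further clusters in 3 of these libraries, held 2399 and 2505 in E14G and 3695 and 2552 in E11G.

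TCONS_00056315 (chrZ:68610874-68613434) had 2.02 and 1.92 FPKM in BC, 14.7 and 12.8 in E11G and 14.1 and 15.2 in E14G. Its gonad libraries were all far above BC and overlapped each other. TCONS_00055040 (chrZ:68198453-68208464), in the same run of loci on Z, was lower but of the same shape, with 0.374 and 0.348 FPKM in BC, 4.14 and 5.20 in E11G and 5.89 and 5.90 in E14G.

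TCONS_00017251 and TCONS_00017252 shared 1 span with TCONS_00017250 (chr2:484453-493354), wholly inside a cluster that carries the A-MYB match printed above. TCONS_00017251 had 19.8 and 22.1 FPKM in BC, 7.49 and 7.24 in E11G and 6.94 and 7.98 in E14G. TCONS_00017252 had 2.83 and 2.77 FPKM in BC, 7.29 and 6.65 in E11G and 6.66 and 6.69 in E14G. Isoforms of 1 span thus moved in opposite directions between BC and gonads, and the sum over the 3 was 23.8 and 26.1 FPKM in BC, 14.8 and 14.2 in E11G and 13.6 and 14.7 in E14G. How reads were divided among such isoforms was decided by the assembly and its quantification.

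**Figure D2:**
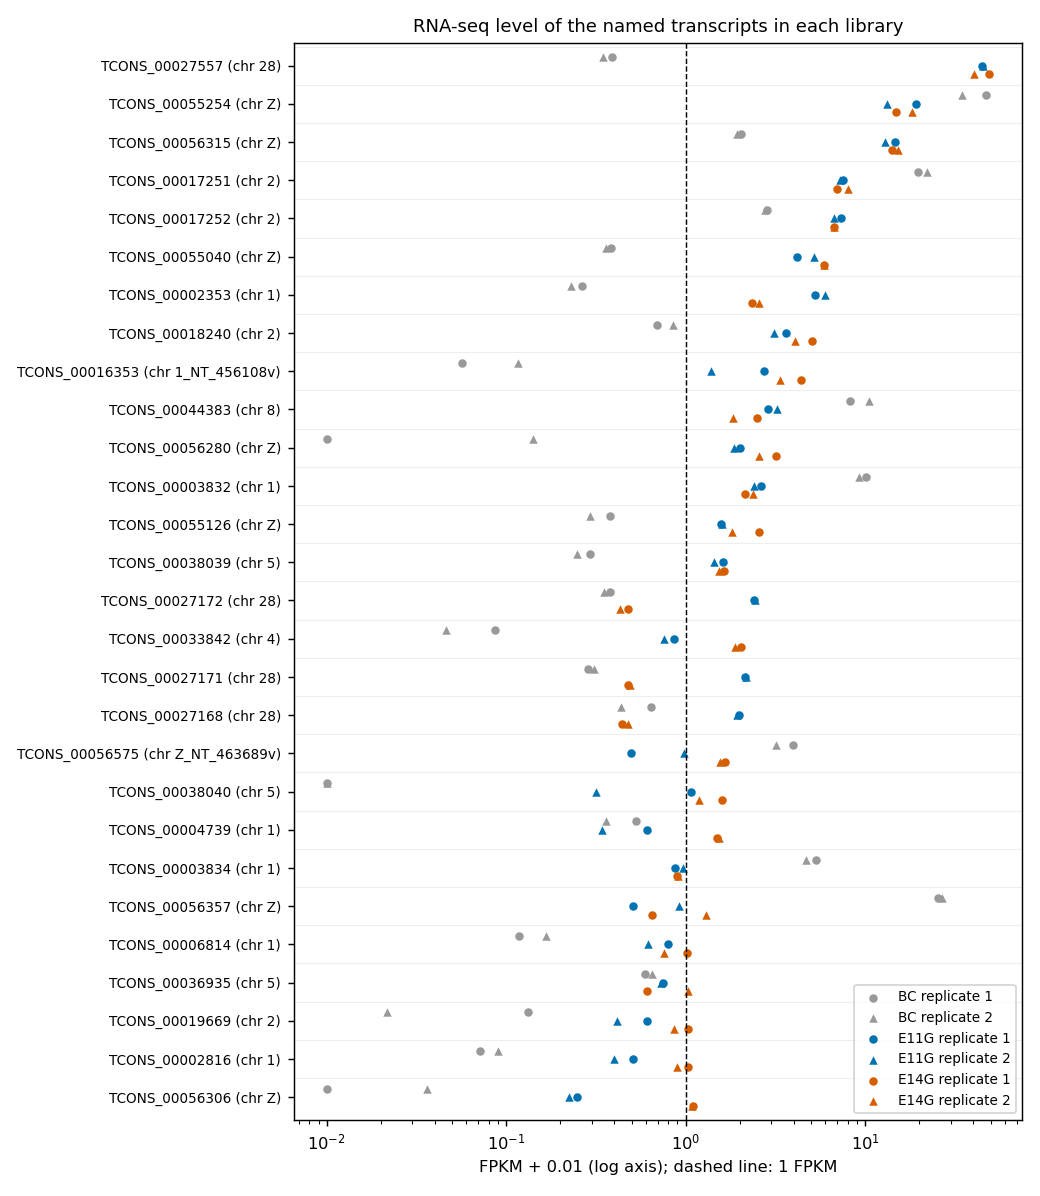
FPKM + 0.01 (log axis) of the 28 named members in each of the 6 RNA-seq libraries, coloured by stage, with circles for replicate 1 and triangles for replicate 2; the dashed line marks 1 FPKM. TCONS_00027557 and TCONS_00056315 lie further right in all 4 gonad libraries than in BC, and TCONS_00056357 lies at most at 1.28 FPKM in gonads and at 25.5 and 26.8 FPKM in BC.

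Which of these RNAs differed between E11G and BC was asked with limma on log2(FPKM + 1), fitted on all 22368 transcripts with at least 1 FPKM in a library, with Benjamini-Hochberg adjustment over all of them and a threshold of 0.05. In E11G, 46 members were higher and 18 lower than in BC (92.8% called). Of all transcripts tested 78.3% were called, 38.0% higher and 40.4% lower, so most transcripts differed between these tissues. The median log2 difference was 0.63 over members and -0.03 over all transcripts. Of the other 5377 expressed unannotated transcripts 48.2% were higher and 35.8% lower, with a median of 0.33. The rule admits members through 1 FPKM in any group, and 36 of the 46 higher ones reached 1 FPKM in gonads only, so their count is no support for a rise. Among the 25 members that reached 1 FPKM in both tissues, 10 were higher and 12 lower in E11G, with a median of -0.13. Centring each library on its median moved all log2 differences by -0.24, and 37 members were then higher and 20 lower, with a median of 0.38. Without the library labelled E11G replicate 1, 40 members were higher and 18 lower with a median of 0.51, and of the 25 members 8 were higher and 12 lower with a median of -0.17.

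The largest rise in E11G was that of TCONS_00027557, with a log2 difference of 5.09 ± 0.11 (SE, limma adjusted p 6.8e-06). TCONS_00002353 (chr1:123920771-124046161), whose long span overlaps 3 Ensembl transcripts, had 5.25 and 5.93 FPKM in E11G and 0.254 and 0.22 FPKM in BC, a difference of 2.41 ± 0.11 (adjusted p 2.8e-05). TCONS_00056315 rose by 2.31 ± 0.10 and TCONS_00055040 by 2.05 ± 0.12. Of these members only TCONS_00056315 reached 1 FPKM in BC too. The others entered through the group where they are high, so their rises are a description and no support for a change. These values are on the log2(FPKM + 1) scale, which understates the change of low transcripts.

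The largest fall was that of TCONS_00056357 (chrZ:70721460-70722572), wholly inside a gonad cluster. It had 25.5 and 26.8 FPKM in BC, 0.5 and 0.909 in E11G and 0.637 and 1.28 in E14G. The difference from BC was -4.01 ± 0.20 in E11G (adjusted p 4.1e-05) and -3.81 ± 0.20 in E14G, and gonads and BC did not overlap. No BC library had a cluster over it, and the gonad cluster over it held 504 and 124 normalized hits in E14G and 321 and 120 in E11G.

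Both members at the BC-rich locus of chromosome 1 were lower in gonads as well. TCONS_00003832 had 2.61 and 2.38 FPKM in E11G, against 10.1 and 9.2 FPKM in BC (log2 difference -1.61 ± 0.10). TCONS_00003834 had 0.865 and 0.953 FPKM in E11G, against 5.30 and 4.66 FPKM in BC (-1.64 ± 0.10). TCONS_00003834 reached 1 FPKM in BC only and so entered through the group where it is high, which leaves its fall a description. Both RNA and normalized hits of this locus, in which the MYBL1 match printed above lies, were thus highest in BC. TCONS_00056575, on a random scaffold of Z, was lower too, at -1.41 ± 0.17.

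In E14G against BC, which shares the BC libraries with the comparison above, 44 members were higher and 16 lower. Of all transcripts tested 76.7% were called, 37.3% higher and 39.4% lower. The median was 0.85 over members, -0.02 over all transcripts and 0.26 over the other expressed unannotated ones. Here 33 of the 44 higher members reached 1 FPKM in gonads only and so entered through the group where they are high. Their count is therefore no support for a rise. Of the 25 members over 1 FPKM in both tissues, 11 were higher and 10 lower, with a median of -0.19. With median centring, which moved all log2 differences by -0.23, 40 were higher and 19 lower. The largest rises were again those of TCONS_00027557 (5.07 ± 0.11), TCONS_00056315 (2.39 ± 0.10) and TCONS_00055040 (2.34 ± 0.12). TCONS_00016353, on a random scaffold of chromosome 1, had 4.40 and 3.35 FPKM in E14G against 0.0464 and 0.107 FPKM in BC (2.17 ± 0.24). Of these risers only TCONS_00056315 reached 1 FPKM in BC too, so the other rises are a description and no support for a change. Among the falls, TCONS_00044383 on chromosome 8 had 2.48 and 1.83 FPKM in E14G against 8.19 and 10.5 FPKM in BC (-1.71 ± 0.16). The Z members followed the same pattern, with 12 of 16 higher and 3 lower in each gonad group. Of the other 53 members, 34 were higher and 15 lower in E11G, and 32 were higher and 13 lower in E14G. Z transcripts as a whole leaned the same way. Of the 1073 expressed on Z, 569 were higher and 305 lower in E11G, and 586 and 273 in E14G. Their medians were 0.48 and 0.54, beside 0.81 and 1.09 for the Z members. Of the 21295 transcripts elsewhere, 7921 were higher and 8727 lower in E11G, and 7755 and 8549 in E14G. BC held more W-linked RNA than any gonad library (summed FPKM 168 and 172). In these Z values a difference of sex between BC and the male gonads cannot be told apart from stage.

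**Figure D3:**
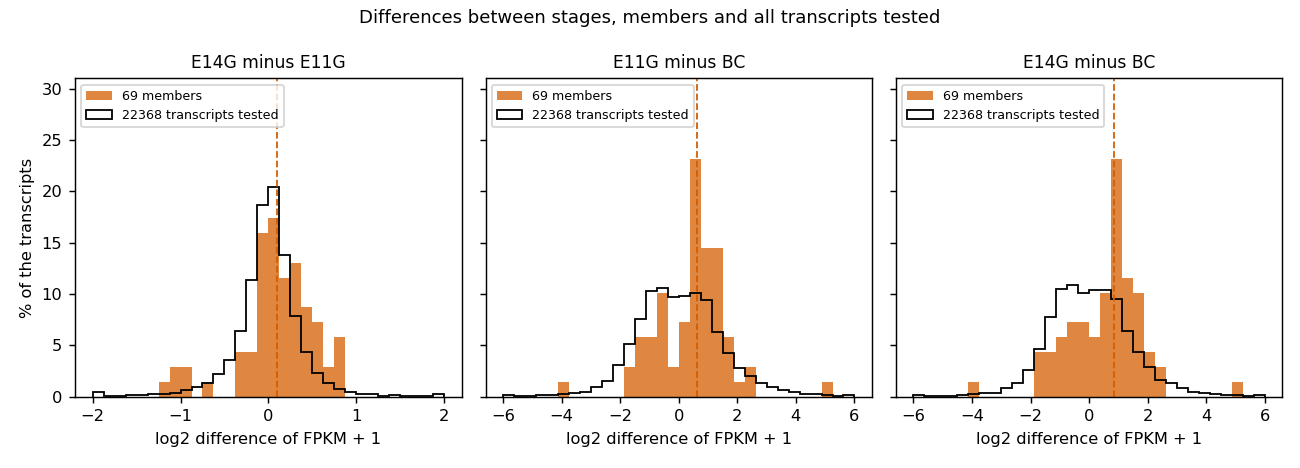
Log2 differences of FPKM + 1 between stages, as a percentage of the 69 members (filled) and of the 22368 transcripts tested (line); values beyond the axis are drawn in the end bins, and the dashed line is the median of the members (0.10, 0.63 and 0.85). Against BC the members lean to the right of the background, but 38 of the 69 reached 1 FPKM in gonads only. Between E14G and E11G most members lie around 0, with a few further out on both sides.

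Between the gonad stages, few members differed. Of the 69 members 3 rose and 5 fell in E14G against E11G (limma with Benjamini-Hochberg adjustment), 11.6% called. Of all transcripts tested 3.84% were called, 1.52% higher and 2.32% lower. All 8 member calls were among the 38 members that reached 1 FPKM in gonads only. Among the 25 that reached 1 FPKM in both tissues, 0 were called. Since the rule admits members through 1 FPKM in any library, the share called is no support for a change particular to members. At an unadjusted p under 0.05, 18 members were higher and 8 lower (37.7% of members, 23.4% of all transcripts). The median over members was 0.10, against 0.01 over all transcripts and -0.05 over the other expressed unannotated ones. The fit pools the spread of all 3 stages, and with only the 4 gonad libraries in it no member was called. None was called without the library labelled E11G replicate 1 or without E14G replicate 2 either, and 2 were called, both lower, without E11G replicate 2 or without E14G replicate 1. E14G and E11G did not overlap in 31 members that were higher and 13 that were lower in E14G, while 28.2% and 25% of all transcripts tested behaved so. Without the library labelled E11G replicate 1, which leaves 1 E11G library and so less room for overlap, the counts were 41 and 15, the shares of all transcripts 41.4% and 35.3%, and the median over members 0.13.

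The 3 members that rose in E14G were each low, and clusters covered 100%, 100% and 69.4% of their spans in the order given here. TCONS_00033842 (chr4:44327095-44328965) had 2.03 and 1.88 FPKM in E14G and 0.852 and 0.75 FPKM in E11G, a log2 difference of 0.71 ± 0.10 (limma adjusted p 0.030). TCONS_00056306 (chrZ:68465417-68468570) had 1.09 and 1.07 FPKM in E14G and 0.239 and 0.215 FPKM in E11G (0.76 ± 0.09, adjusted p 0.024). TCONS_00004739 (chr1:67359540-67364427), over the second MYBL1 match printed above, had 1.48 and 1.52 FPKM in E14G and 0.597 and 0.333 FPKM in E11G (0.78 ± 0.13, adjusted p 0.048). In all 3, both E14G libraries lay above both E11G libraries. Each of the 3 reached 1 FPKM in E14G only and so entered through the group where it is high. Their rises are therefore a description and no support for a change.

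Of the 5 members that fell, 4 were isoforms of the chromosome 28 span. TCONS_00027172 had 0.464 and 0.421 FPKM in E14G and 2.38 and 2.42 FPKM in E11G, a difference of -1.24 ± 0.09 (adjusted p 0.015). TCONS_00027171 fell by 1.10 ± 0.09, TCONS_00027168 by 1.02 ± 0.11 and TCONS_00027170 by 0.75 ± 0.09 on the log2 scale. All 4 reached 1 FPKM in E11G only and so entered through the group where they are high. Their falls are likewise a description and no support for a change. The most abundant member of that span, TCONS_00027557, did not pass the test (-0.02 ± 0.11, limma adjusted p 0.94). Whether it belongs to the same gene or strand as the 4 that fell is not known. The sum over the 5 members of the span was 50.8 and 42.2 FPKM in E14G and 52.6 and 53.3 FPKM in E11G. The fifth member that fell was TCONS_00002353, with 2.32 and 2.56 FPKM in E14G and 5.25 and 5.93 FPKM in E11G (-0.94 ± 0.11, adjusted p 0.024). Clusters covered 25.3% of the chromosome 28 span and 5.97% of that of TCONS_00002353, so none of the 5 was among the 37 members with at least 0.5 of their span in clusters, of which 2 rose and none fell.

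PiRNA hits at the member loci were compared between E14G and E11G with limma on log2(normalized hits + 1) over the 816 loci called in all 4 gonad libraries. None of the 53 member loci and none of the 816 loci (0.0%) passed the threshold. At an unadjusted p under 0.05, 14 member loci were higher and 4 lower, beside 93 higher and 154 lower of all 816 loci. On assembled chromosomes 13 of 50 member loci were higher and 4 lower, and 40 of 245 others were higher and 17 lower. The replicate numbers stand for breed and sequencer, and with them as a replicate block 28 member loci passed, 18 higher and 10 lower, of 413 loci in all (50.6%, 16.4% higher and 34.2% lower). The share called (52.8% of member loci) was near that of all loci. On assembled chromosomes it was 52% of 50 member loci (34% higher, 18% lower) and 38.0% of 245 others (23.7% higher, 14.3% lower). The median log2 difference was 0.41 over member loci and -0.30 over all loci. On assembled chromosomes the medians were 0.44 over 50 member loci and 0.07 over 245 others. In E14G, 31 member loci were higher and 16 lower in both breeds, and on assembled chromosomes 60% of member loci and 44.9% of others were higher in both. With the block and median centring, an alternative added after the data were seen, 20 member loci were higher and 7 lower, beside 16.4% higher and 14.2% lower of all loci (30.6% called).

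The largest rises were at the loci of TCONS_00004739, TCONS_00056306 and TCONS_00055126. The locus of TCONS_00004739 held 638 and 324 normalized hits in E14G and 163 and 75.4 in E11G, a log2 difference of 2.03 ± 0.51 (adjusted p 0.13, 0.00026 with the block). The locus of TCONS_00056306 held 1833 and 1079 normalized hits in E14G and 382 and 311 in E11G (2.02 ± 0.34, adjusted p 0.12, 0.00031 with the block). It was higher still in E7PGC, at 3129 and 2986 normalized hits. The locus of TCONS_00055126 on Z held 738 and 448 in E14G and 139 and 153 in E11G (1.97 ± 0.34, adjusted p 0.12, 0.00075 with the block). At each of the 3 loci both E14G libraries lay above both E11G libraries. The loci were picked by these same values, so that is a description and no support for a rise.

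Among member loci with an unadjusted p under 0.05, the largest falls were at the loci of TCONS_00056315, TCONS_00038039 and TCONS_00036935. The loci of TCONS_00044388 (-1.10 ± 0.48), of the chromosome 28 span (-0.97 ± 0.42) and of TCONS_00038777 (-0.96 ± 0.40) had larger differences than the third but a wider spread. The locus of TCONS_00056315 held 113 and 192 normalized hits in E14G and 410 and 390 in E11G (-1.44 ± 0.35, adjusted p 0.13, 0.0022 with the block). Its RNA did not follow, with a log2 difference of 0.08 ± 0.10. The locus of TCONS_00038039, whose span overlaps ERNI, held 397 and 418 in E14G and 1140 and 793 in E11G (-1.22 ± 0.29, adjusted p 0.13, 0.0034 with the block), and that of TCONS_00036935 held 99.2 and 142 in E14G and 212 and 229 in E11G (-0.89 ± 0.32, adjusted p 0.14, 0.0096 with the block). Again the E14G and E11G libraries did not overlap, at loci picked by these same values.

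RNA and piRNA differences between E14G and E11G, which come from different birds, were set side by side. The 3 members whose RNA rose, which had entered through E14G only, lay at loci whose hits were higher in E14G in both breeds. Of all member loci 58.5% were higher and 30.2% lower in both breeds, so this is a description only. The locus of TCONS_00033842 held 1243 and 804 normalized hits in E14G and 459 and 329 in E11G (1.36 ± 0.33, limma adjusted p 0.0016 with the block). The chromosome 28 isoforms that fell lay at a locus with fewer hits in E14G (-0.97 ± 0.42, adjusted p 0.18, 0.0069 with the block). TCONS_00002353 went the other way, with lower RNA and hits of 95.0 and 315 in E14G and 87.7 and 142 in E11G. Taking the most abundant member of each of the 53 loci, 29 loci were higher in both measures, 8 lower in both, 10 higher in RNA only and 6 higher in piRNA only. Across these 53 points Spearman's rho was 0.47 and Pearson's r 0.44, while over 129 loci with an annotated expressed transcript they were 0.09 and 0.15. Points share libraries, and many members are under 2 FPKM. Hits were those of the whole merged locus, which can join clusters that the member does not overlap. The clusters over TCONS_00032652 averaged 79.4 normalized hits over the gonad libraries, and its merged locus 1772. Over the 23 loci whose member had at least 2 FPKM in gonads rho was 0.37. Without the library labelled E11G replicate 1, rho was 0.46 over the 53 loci, 0.30 over the 23 and 0.11 over the 129.

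**Figure D4:**
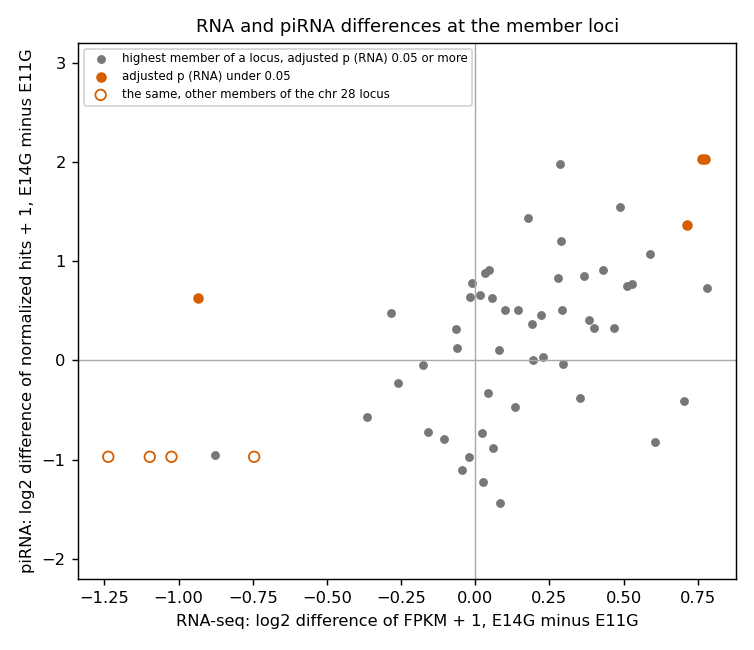
For the most abundant member of each of the 53 member loci, the RNA-seq log2 difference of FPKM + 1 (x axis) and the piRNA log2 difference of normalized hits + 1 (y axis), both E14G minus E11G; filled orange points passed the RNA test and open ones are the further chromosome 28 isoforms that did. Of the points, 29 lie in the upper right and 8 in the lower left, and TCONS_00002353 lies alone in the upper left among those that passed.

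Members at the loci with most gonad piRNAs had modest RNA, as the examples of 3 of the top 5 member loci show. TCONS_00056280 (chrZ:67244637-67245633), at the highest locus, had 0 and 0.132 FPKM in BC, 2.0 and 1.85 in E11G and 3.17 and 2.56 in E14G. TCONS_00018240 on chromosome 2, at a locus with 4581 and 5428 normalized hits in E14G and 6214 and 6798 in E11G, had 0.681 and 0.841 FPKM in BC, 3.6 and 3.09 in E11G and 5.06 and 4.06 in E14G. TCONS_00038040 on chromosome 5, at a locus with 6501 and 5020 hits in E14G and 4093 and 2738 in E11G, was at 0 FPKM in both BC libraries, at 1.06 and 0.308 in E11G and at 1.57 and 1.18 in E14G. For these 3 members RNA was lowest in BC, and the E14G libraries lay above the E11G ones. All 3 reached 1 FPKM in gonads only, so their low place in BC follows from how they entered. This order of stages did not hold for every member at such loci. TCONS_00020527, at the same locus as TCONS_00018240, had 0.564 and 0.449 FPKM in BC, 3.67 and 3.15 in E11G and 3.02 and 3.67 in E14G, and TCONS_00003832, at the third highest member locus, was highest in BC with 2.13 and 2.37 FPKM in E14G and 2.61 and 2.38 FPKM in E11G.

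Genes of the piRNA pathway were read beside the members. Of a list of 25, 7 matched a RefSeq transcript of the table. None of the 7 passed the test between E14G and E11G, where 3.84% of all transcripts did. Against BC, 4 were higher and 2 lower in each gonad group. Of all transcripts tested 78.3% were called in E11G and 76.7% in E14G, so this count is near the background. PIWIL1, a PIWI protein, had 1.80 and 1.99 FPKM in BC, 21.8 and 13.5 in E11G and 28 and 26.6 in E14G. ASZ1, a nuage protein, had 2.19 and 2.59 FPKM in BC, 18.0 and 14.9 in E11G and 21.2 and 18.4 in E14G. The RNA helicase DDX4 and the piRNA methylase HENMT1 were the other two that rose, and the fallers were HSP90AA1, a chaperone, and TDRD3, a Tudor protein. Of 3 germ cell markers 2 were found (DDX4 and DAZL), and their summed level was 15.3 and 17.2 FPKM in BC, 85.4 and 75.9 in E11G and 82.4 and 71.4 in E14G. The 3 Sertoli cell markers summed to 8.3 and 8.95 FPKM in BC, 3869 and 4761 in E11G and 3143 and 2995 in E14G, and 3 of 4 markers of the pluripotent blastoderm (NANOG, LIN28A and LIN28B) to 1068 and 1184 FPKM in BC, 37.4 and 36.1 in E11G and 9.73 and 9.52 in E14G. These cell types differed between BC and gonads together with the members, and their part in the members' differences was not tested.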

How the data were processed

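The authors deposited 1 list of piRNA clusters for each of 8 small RNA libraries and 1 FPKM table for 6 RNA-seq libraries. Per the labels and methods, the authors trimmed reads, mapped them to galGal5 with TopHat2, removed other small RNAs and called clusters with an adapted proTRAC 2.0.5 (window 5000 bp, smallest cluster 3000 bp, piRNA length 24 to 34 nt). The submitters' processing notes also name Bowtie 1.2.0. The deposited normalized hits, a score, are reads divided by their genomic hits and scaled to library size (RPM). Read totals of the lists were 1394576 (E11G1) to 10786087 (E7PGC1), with 1394576 and 1658418 in the MiSeq gonad libraries and 7872371 and 8869224 in the Solexa ones. The FPKM were made by the authors with Cufflinks 2.2.1 and Cuffnorm, and RNA-seq depth is unknown because the table holds neither counts nor lengths. Other columns of the lists give percentages, directions and motif matches as deposited. The E7PGC list headers name E6 input, where the labels give E7.

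Here clusters of all 8 lists overlapping by at least 1 bp were merged into loci, and hits were summed per locus. Transcripts and loci were compared with limma 3.58.1 (R 4.3.3, mean-variance trend) on log2(FPKM + 1) over transcripts with at least 1 FPKM in a library, all 6 libraries in the fit, and on log2(normalized hits + 1) over loci called in all 4 gonad libraries. Errors in the text are the standard errors of that fit. The programs were tested on simulated data. Replicate numbers of the gonad small RNA libraries mark breed and sequencer in the labels, and the differences between replicates correlated between E11G and E14G across 816 loci (r = 0.617), so the blocked value is printed. RNA-seq replicate numbers are in order of deposit and pair nothing. The blocked fit leaves 1 residual degree of freedom a locus.

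Members and lists were chosen with earlier results of these data known. Named members were the 6 with most gonad FPKM, up to 4 rises and 4 falls past the threshold in each comparison (by size), the most abundant member at each of the 5 loci with most hits, the 3 nearest to the FPKM threshold on each side, and members at the 3 largest rises and falls of hits among loci with an unadjusted p under 0.05, since none passed the threshold. The last part was up to 4 members with a call in all 8 lists. TCONS_00027169, TCONS_00055909, TCONS_00031588, TCONS_00006638, TCONS_00014600, TCONS_00038777, TCONS_00044388, TCONS_00020527, TCONS_00032652, TCONS_00017250 and TCONS_00027170 are named for their position, motif, locus or isoform group. Gene symbols were matched by RefSeq accession for 6731 of 7467 RefSeq rows, through a table of assembly GRCg7b used for names only. No genome sequence was used here.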

Additional observations from a re-analysis of the deposited data

Results flagged for a closer look

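At 3 member loci normalized hits moved in opposite directions in the 2 breeds between E14G and E11G, by over 0.1 on the log2 scale in each. With 1 library per breed and stage the difference was not tested. The log2 difference at the locus of TCONS_00022524 was -0.25 in Cobb 500 and 0.16 in Leghorn. At the locus of TCONS_00006854 it was -0.42 in Cobb 500 and 0.43 in Leghorn, and at that of TCONS_00003280 it was -0.20 in Cobb 500 and 0.42 in Leghorn. In all, 6 of 53 member loci (11.3%) had opposite signs in the breeds, beside 15.6% of the 763 others.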

How the results depend on the processing

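Between E14G and E11G, the 8 RNA calls became 4 without a filter on low values (1 higher, 3 lower) and 0 with only the 4 libraries of the 2 stages in the fit, and leaving out 1 replicate gave 0 to 2. The 37 members with at least 0.5 of their span in clusters held 2 of the calls, and the 16 members with at least 5 FPKM held 1. These 2 subsets held 37 and 16 of the calls of E11G against BC, and 37 and 15 of those of E14G against BC, fewer because fewer members were counted. Leaving out 1 replicate gave 55 to 58 calls for E11G against BC and 54 to 58 for E14G against BC. Other settings (pseudocount 0.1, 1 FPKM in both libraries of a stage, median centring) stayed within 1.5 times of the counts reported, at 6 to 11 for E14G against E11G. For piRNA loci, the replicate block gave 28 calls and the block with median centring 27, where the fit without it gave 0. Leaving out 1 replicate gave 0 to 13 calls there, 2 without E14G replicate 1 and 13 without E14G replicate 2. Median centring, 10 added to the hits, loci merged over the gonad lists alone, assembled chromosomes alone and those 37 members all gave 0. No sign changed among 561 values under alternatives, which cover named members only in comparisons where they were called, and loci picked for rises or falls. Differences that were not called could change sign. Without the library labelled E11G replicate 1, 2 members, neither of them called, changed sign between E14G and E11G. No block was fitted to the RNA-seq libraries, whose replicate numbers pair nothing. With 2 libraries a group, low transcripts near 1 FPKM and unknown RNA-seq depth limit what can be detected.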
